A study of Rattus norvegicus with 54 samples.

Results

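Age was compared in the nucleus accumbens of control male rats, postnatal day 90 (P90, adult) against postnatal day 42 (P42, adolescent). The members are the libraries whose titles give male sex, the free-choice liquid diet without ethanol before birth (FCL), the water vehicle in adolescence (VEH) and either age, which are 15 of the 54 libraries of the series, 9 at P42 and 6 at P90. All animals were Long Evans rats, and total RNA was sequenced. P42 brains were taken 24 h after the last adolescent treatment and P90 brains in adulthood with no challenge, so age and time since the last treatment cannot be told apart. Set beside them are FCL-VEH females (7 libraries at P42, 8 at P90) and ethanol-exposed males, which were PAE-VEH at P42 (ethanol before birth, then water, 9 libraries) and PAE-AAE at P90 (ethanol before birth and alcohol in adolescence, 6 libraries). The exposed groups thus differ in adolescent treatment as well as in age. The labels do not say that each library came from a separate animal, so p-values measure the spread between these libraries, which may be partly technical.

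The nucleus accumbens is the ventral striatum, a reward region made mostly of inhibitory spiny projection neurons. Between adolescence and adulthood the forebrain still refines its synapses and adds myelin. Oligodendrocytes pass through a stage that expresses the receptor Gpr17 before they myelinate, and they need newly made sterols and fatty acids for membrane. Astrocytes carry out much of the amino acid breakdown and conjugation chemistry of the brain. In bulk tissue, fewer cells of a type and less RNA per cell cannot be told apart.

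Total counts of the 15 libraries ran from 67.7 to 103.8 M reads, with a median of 77.8 M. Ppp1r1b, the spiny neuron phosphoprotein DARPP-32, lay between 1126 and 2071 CPM (counts per M reads, scaled by TMM factors of edgeR) at P42 and between 801 and 2781 CPM at P90. P42 replicate 8 went against its title, with 712 CPM of Xist, the RNA of the silenced X chromosome, against 0.228 to 4.28 CPM in the other P42 libraries, and no count of the Y-linked genes Kdm5d, Ddx3y, Eif2s3y and Uty. P90 replicate 6 held 57.6 CPM of Xist against at most 9.41 CPM in the other adults. Its Kdm5d (30.9 CPM) and Uty (19.5 CPM) were the lowest of the adults. Its Ddx3y (88.5 CPM) and Eif2s3y (62.2 CPM) lay within the ranges of the other adults, 87.3 to 108.9 and 50.9 to 68.5 CPM. P90 replicate 6 also lay farthest out on the first axis of multidimensional scaling of the 15 libraries, at 2.54, with P90 replicates 5 and 4 next at 1.25 and 1.22. Both libraries are in the values given first, and results are also given without them.

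The adult libraries differed in the summed levels of marker genes. The 20 myelin genes summed to between 14504 and 21345 CPM at P42. At P90 they summed to 35422 CPM in replicate 4 and 30437 CPM in replicate 6, above every P42 library, and to between 9171 and 14611 CPM in the other adults, in or below the low end of the P42 range. The 14 choroid plexus genes, markers of the tissue that makes cerebrospinal fluid, summed to 4617 CPM in P90 replicate 6, 2912 CPM in replicate 4, 1801 CPM in replicate 3 and between 255 and 605 CPM in the others. At P42 they reached 2542 CPM in replicate 5 and at most 487 CPM elsewhere. Ribosomal protein genes were also highest in P90 replicates 6 and 4, at 10244 and 8575 CPM, against 4138 to 6558 CPM at P42. The 23 spiny neuron genes summed to between 8732 and 15336 CPM at P42 and between 7106 and 15816 CPM at P90, so the ages overlapped. The highest adult was replicate 6, and the other adults lay between 7106 and 12524 CPM.

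**Figure D1:**
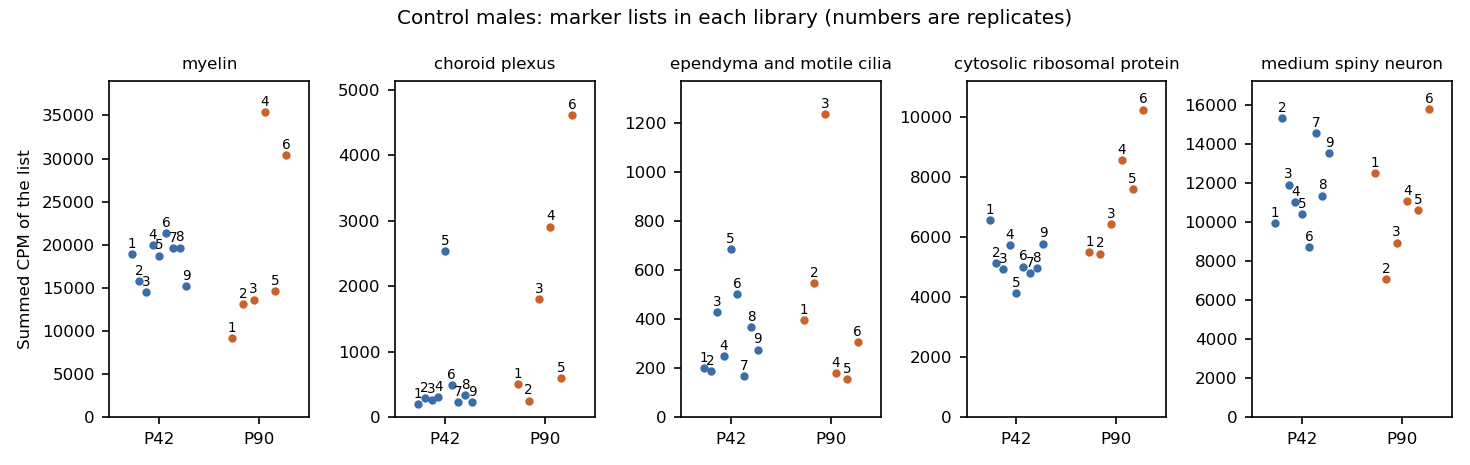
Summed CPM of 5 marker lists (y axes, each from 0) in each control male library at P42 (blue) and P90 (orange), numbered by replicate. Myelin genes set P90 replicates 4 and 6, at 35422 and 30437 CPM, apart from all other libraries, while spiny neuron genes overlap between the ages.

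At P90, 465 genes were higher and 145 were lower than at P42 in control males by the quasi-likelihood test of edgeR at a Benjamini-Hochberg adjusted p under 0.05. This was 1.93% and 0.603% of the 24065 genes tested, or 2.53% in all. Genes that rose included enzymes of lysine breakdown and of glutathione and sulfate conjugation, and subunits of the immunoproteasome. Single genes of the kynurenine and tetrahydrobiopterin lists, Aadat and Qdpr, rose as well. So did 22 of 29 ribosomal protein genes, none of which passed without P42 replicate 8 and P90 replicate 6. Genes that fell included enzymes of sterol and fatty acid synthesis, the oligodendrocyte receptor Gpr17 and a laminin chain. All 6 adults lay above all 9 adolescents for 79 genes (0.328% of those tested) and below them for 61 (0.253%), or 0.582% in all. Leaving out 1 library at a time, 95 genes (0.395%) passed in each of the 15 fits. DESeq2, an alternative test, called 807 of the 24065 genes higher and 359 lower. By edgeR 4245 of the 24065 had an unadjusted p under 0.05.

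The number of calls depended on few libraries. Without P90 replicate 6 it was 106 (0.435%), of which 105 were among the 610, and without P90 replicate 4 it was 176. Without P90 replicates 1 or 2 it rose to 1102 or 1207. Of the P42 libraries, leaving out replicates 7, 3, 2 or 8 gave 306, 356, 368 or 394 (1.64% for replicate 8). Without both P42 replicate 8 and P90 replicate 6 it was 76 (0.313%), 53 higher (0.218%) and 23 lower (0.0947%). Without both myelin-rich adults, replicates 4 and 6, it was 32, 15 higher and 17 lower. P90 replicate 6 was the highest adult for 283 of the 465 genes that rose and the lowest for 54 of the 145 that fell. These genes were called with that library included, which in part puts it at the extreme.

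**Figure D2:**
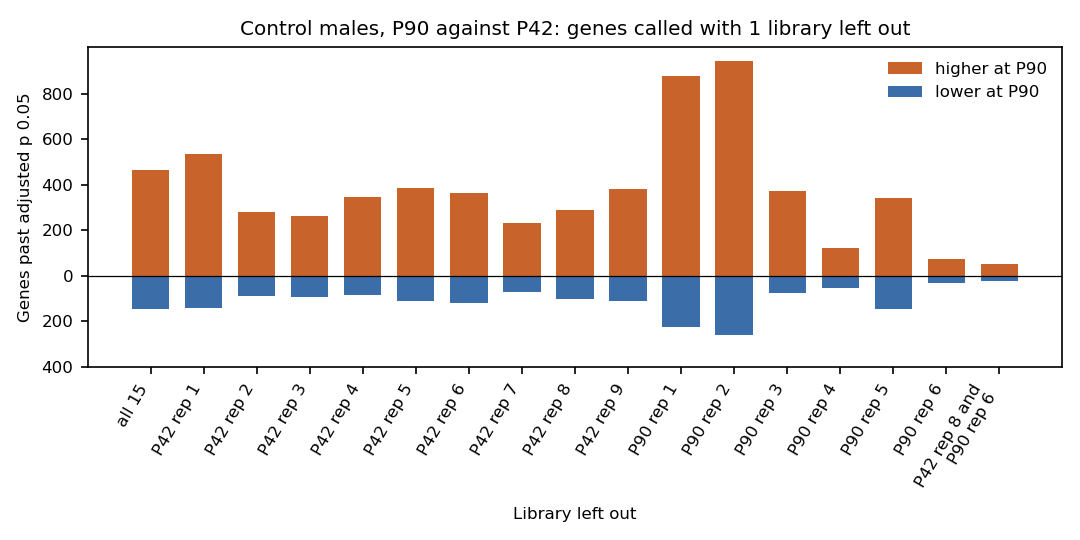
Number of genes past adjusted p 0.05 (y axis, higher at P90 drawn upward in orange and lower drawn downward in blue) with the library named on the x axis left out. The total was 610 with all libraries, 106 without P90 replicate 6 and 1207 without P90 replicate 2.

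A core of 70 genes (0.291% of those tested) passed with all libraries, without P42 replicate 8, without P90 replicate 6 and without both. Of these 48 rose (0.199%) and 22 fell (0.0914%), and 46 and 20 of them passed in each of the 15 fits that left out 1 library. The fits without P42 replicate 8 and without P90 replicate 6 are among those 15, so the core passed them by definition. The ages did not overlap for 21 of the 48 and 16 of the 22, beside 0.328% and 0.253% of all genes tested. These genes were chosen for a difference between the same libraries, so such counts are no separate support. P90 replicate 6 was the highest adult for 15 of the 48. The median log2 changes of the 48 and the 22 were 0.71 and -0.53 with all libraries, and 0.58 and -0.54 without P90 replicates 4 and 6. In that last fit, which shares its other libraries with the rest, 14 of the 48 and 14 of the 22 passed. The genes described next belong to this core unless said otherwise. Those that neither the naming rule nor a list picked out were named after their values were seen, among them Psat1, Mthfs, Nfe2l2, Nqo1, Fth1, Mt3, the Cyp4 genes, Cbx7, Xaf1, Zc3hav1, Agps, L1cam, Rras2 and Bcas1.

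Aadat and Aass act in lysine breakdown, and Aadat also turns kynurenine into kynurenic acid, a blocker of glutamate receptors. Aadat (chromosome 16, 34520236 to 34566388, coordinates as deposited, which match GRCr8) ran from 3.82 through 4.38 to 6.99 CPM at P42 and from 8.91 through 14.8 to 22.5 CPM at P90, where the middle value is the median of the age. Every adult lay above every adolescent, and P90 replicate 6 was the highest. The log2 change was 1.64 ± 0.17 (SE; edgeR adjusted p = 1.41e-06), and 1.46 without P90 replicates 4 and 6 (adjusted p = 9.44e-05). Aass (chromosome 4, 52572146 to 52628811), the enzyme that opens the lysine route, ran from 5.58 through 6.33 to 7.77 CPM at P42 and from 8.74 through 10.1 to 11.5 CPM at P90. These groups did not overlap either, and the log2 change was 0.64 ± 0.10 (edgeR adjusted p = 0.000927). Of 22 amino acid breakdown genes 4 rose and none fell, beside 1.93% and 0.603% of all genes, with a median log2 change of 0.24. Besides Aass these were Hibadh (0.39), Pcca (0.26) and Gcdh (0.20), mitochondrial enzymes of valine, propionate and lysine breakdown, which did not pass without both doubted libraries. Of the 10 kynurenine and tryptophan genes tested only Aadat passed with edgeR, and DESeq2 called 2 higher, beside 807 of all 24065 genes. Afmid, which forms kynurenine, stood at 0.44 (edgeR adjusted p = 0.0789).

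Qdpr (chromosome 14, 69882776 to 69896378) regenerates tetrahydrobiopterin, the cofactor of the enzymes that make dopamine, serotonin and nitric oxide. It ran from 71.1 through 84.1 to 108.99 CPM at P42 and from 137 through 229 to 438 CPM at P90. All adults lay above all adolescents. The highest were replicate 4 (438 CPM) and replicate 6 (389.6 CPM), the libraries richest in myelin genes, and the other adults lay between 137 and 249 CPM. The log2 change was 1.65 ± 0.24 (edgeR adjusted p = 0.000669) with all libraries and 1.19 without those 2 (adjusted p = 0.0272). Of the 8 tetrahydrobiopterin genes Qdpr was the only one to pass with edgeR, and DESeq2 called 2 higher, beside 807 of all 24065 genes. Pcbd2, which acts beside Qdpr in the same cycle, stood at 0.42 (edgeR adjusted p = 0.0729).

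Cbs (chromosome 20, 9709394 to 9733925), the first enzyme of transsulfuration, turns homocysteine into cystathionine. It ran from 49.9 through 54.6 to 60.4 CPM at P42 and from 66 through 78.6 to 88.7 CPM at P90. The ages did not overlap (log2 change 0.51 ± 0.08, edgeR adjusted p = 0.000795). Of 18 transsulfuration and one-carbon genes Cbs and Cdo1, a cysteine dioxygenase on the way to taurine, rose and none fell with edgeR, beside 1.93% and 0.603% of all genes. Cdo1 (0.39) did not pass without both doubted libraries. Psat1, an aminotransferase of serine synthesis, ran from 171 through 199.6 to 216 CPM at P42 and from 208 through 276 to 349.5 CPM at P90. Its groups overlapped at their edge, and it rose by 0.52 ± 0.09 (edgeR adjusted p = 0.00314). Mthfs, an enzyme of folate metabolism, rose by 0.53 ± 0.10 (edgeR adjusted p = 0.00507), and its groups did not overlap.

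**Figure D3:**
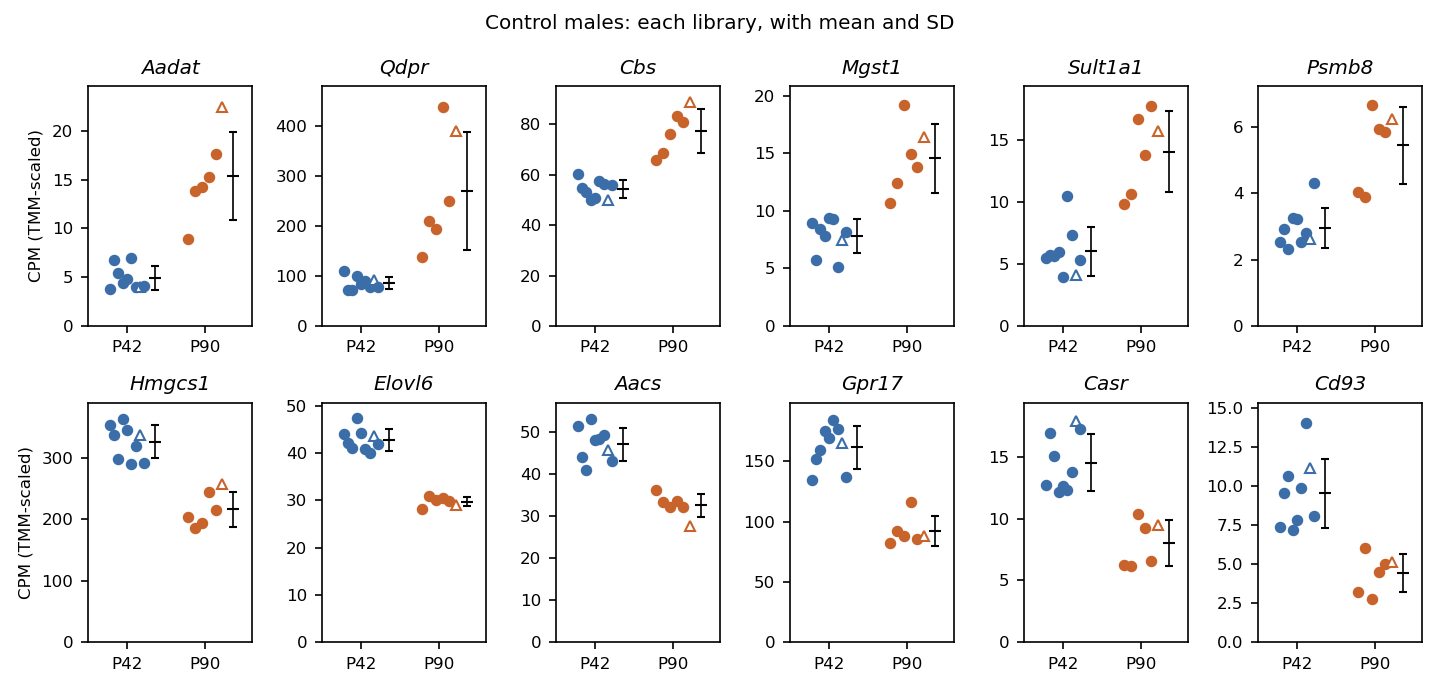
TMM-scaled CPM (y axes from 0) of 12 genes in each control male library at P42 (blue, 9) and P90 (orange, 6), with mean and SD in black. Open triangles are P42 replicate 8 and P90 replicate 6. The upper row holds genes that rose and the lower row genes that fell, and the ages overlap only for Sult1a1 and Psmb8.

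Conjugation enzymes attach glutathione or sulfate to reactive compounds, hormones and transmitters. Of 20 such genes tested 7 rose and none fell, beside 1.93% and 0.603% of all genes, and the median log2 change was 0.44. Without both doubted libraries 4 passed and the median was 0.36. Mgst1 (chromosome 4, 172760930 to 172776157), a membrane-bound glutathione transferase, ran from 5.16 through 8.12 to 9.41 CPM at P42 and from 10.7 through 14.4 to 19.2 CPM at P90. No adult lay within the adolescent range, and the log2 change was 0.90 ± 0.14 (edgeR adjusted p = 0.000949). Sult1a1 (chromosome 1, 190702592 to 190706112), a sulfotransferase of phenols, ran from 3.94 through 5.59 to 10.5 CPM at P42 and from 9.84 through 14.7 to 17.7 CPM at P90. The lowest adult lay below the highest adolescent, and the gene rose by 1.23 ± 0.20 (edgeR adjusted p = 0.00127). Gsta1 rose by 1.03 ± 0.19, and Gstz1, which also serves tyrosine breakdown, by 0.44 ± 0.08. Gstk1 (0.65), Gstm5 (0.61) and Gstm1 (0.53) passed with all libraries and not without both doubted ones. Gsta and Gstm genes have close copies, so counts may be split between family members. The 15 astrocyte genes had a median log2 change of 0.22, with 14 above 0. They summed to between 8417 and 9956 CPM at P42, 8914 CPM in P90 replicate 1 and between 10272 and 12112 CPM in the other adults. Their part in the changes of the conjugation, amino acid and redox genes was not tested.

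Further core genes that rose include a transcription factor and enzymes of redox chemistry. Nfe2l2 encodes NRF2, the factor that switches on many conjugation enzymes, and ran from 17.7 through 20.8 to 22.8 CPM at P42 and from 20.9 through 31 to 38.9 CPM at P90. The ages overlapped in their lower part (log2 change 0.56 ± 0.10, edgeR adjusted p = 0.00431). Nqo1, a quinone reductase and known NRF2 target, rose by 0.66 ± 0.13. Fth1, the ferritin heavy chain that stores iron, ran from 755 through 924 to 1147 CPM at P42 and from 1094 through 1581 to 2225 CPM at P90. Its highest values were in P90 replicates 6 and 4, at 2225 and 2073 CPM, and its change was 0.78 ± 0.14 with all libraries and 0.50 without these 2 (edgeR adjusted p = 0.00383 and 0.184). Mt3, the brain metallothionein, rose by 0.58 ± 0.10 and Hspb1, a small heat shock protein, by 1.42 ± 0.26. Selenbp1, a methanethiol oxidase, rose by 0.93 ± 0.15 without overlap. The cytochromes P450 Cyp2j3 (0.50), Cyp4f1 (0.71), Cyp4f4 (0.48) and Cyp4v3 (0.71), enzymes that oxidise fatty acids, rose as well.

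Other genes that rose encode secreted, surface or signalling proteins. Chi3l1, a chitinase-like protein secreted by astrocytes, ran from 64.6 through 70.2 to 74.5 CPM at P42 and from 81.9 through 105 to 135 CPM at P90. The ages did not overlap (log2 change 0.61 ± 0.09, edgeR adjusted p = 0.000405). Rnase4, a secreted ribonuclease, rose by 0.62 ± 0.09 and S100a1, a calcium-binding protein, by 0.87 ± 0.13. Fxyd1, a regulator of the sodium pump, ran from 19.8 through 24.8 to 28.7 CPM at P42 and from 27.2 through 48.5 to 81.5 CPM at P90. It rose by 1.08 ± 0.18 (edgeR adjusted p = 0.00231) and stood at 0.68 without P90 replicates 4 and 6 (adjusted p = 0.115). It was highest in P90 replicates 6, 4 and 3, the adults with the highest choroid plexus sums, and the part of that tissue in its change was not tested. Anxa4, an annexin that binds membranes with calcium, rose by 0.91 ± 0.15 and Tnfsf13, the cytokine APRIL, by 1.04 ± 0.18, both without overlap. Nat8f3, of an acetyltransferase family, rose by 1.07 ± 0.20 and Kiaa1210 by 1.08 ± 0.21, also without overlap. Cbx7, a subunit of Polycomb complexes, ran from 42.5 through 47.3 to 50.9 CPM at P42 and from 58.6 through 60.9 to 62.5 CPM at P90. The adult values lay close together above all adolescents (log2 change 0.36 ± 0.06, edgeR adjusted p = 0.00329).

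Class I molecules show peptides, cut by the immunoproteasome, at the cell surface. All 16 genes of this list tested had a change above 0 and 5 rose, beside 1.93% of all genes, with a median log2 change of 0.36. Psmb8 (chromosome 20, 4654068 to 4657049), a catalytic subunit of the immunoproteasome, ran from 2.31 through 2.79 to 4.32 CPM at P42 and from 3.9 through 5.9 to 6.67 CPM at P90. The lowest adults lay within the adolescent range, and the log2 change was 0.89 ± 0.16 (edgeR adjusted p = 0.00314). Its partner Psmb9 rose by 0.95 ± 0.20 (edgeR adjusted p = 0.00905) and is outside the core because it missed the threshold without P90 replicate 6 alone (adjusted p = 0.0601). B2m, the light chain of class I molecules, rose by 0.50 ± 0.11, Psme1 of the proteasome activator by 0.58 ± 0.14 and the heavy chain gene RT1-A2 by 0.88 ± 0.19, and none of these 3 passed without both. RT1-CE5, another heavy chain gene of the core, rose by 0.95 ± 0.18. RT1 genes have near-identical copies, so their single values are uncertain. The antiviral genes Xaf1 (0.73 ± 0.14) and Zc3hav1 (0.66 ± 0.12) rose too. Of 20 interferon response genes 1 rose with edgeR and 4 with DESeq2, beside 465 and 807 of all 24065 genes. The median log2 change was 0.55. Without both doubted libraries 0 passed with edgeR and 9 had an unadjusted p under 0.05, beside 2657 of all 24297 genes. The list summed to 290.2 CPM in P90 replicate 3, to between 149 and 211 CPM in the other adults and to between 132 and 181 CPM at P42.

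Interferon regulatory factors bind the interferon-stimulated response element, searched here on both strands as a pair of GAAA runs in the same direction with 2 bases of any kind between them. In RefSeq promoter windows of GRCr8, from 250 bases before to 50 after a transcript start, 4.12% of the 27457 genes with a window held it. Of the class I genes 14 had a window and 7 held it, and of the interferon response genes 13 had one and 9 held it. Psmb8 and B2m are shown because both rose, 5′ to 3′ on the gene's strand with the element in capitals. The Psmb8 stretch is chr20:4657019-4657048 (minus strand) and runs from base -17 to base 13 about the transcript start. It lies inside the span given above for the gene. The B2m stretch is chr3:129549140-129549279 (plus strand) and runs from base -190 to base -51.
Psmb8: ttggtgctgtggcTTTCGCTTTCacttcct
B2m: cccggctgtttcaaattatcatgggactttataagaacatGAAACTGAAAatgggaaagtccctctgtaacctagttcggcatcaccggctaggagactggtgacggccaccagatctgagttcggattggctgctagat
A match describes letters and shows no binding in these samples.

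A share of the sterol synthesis genes fell. Of 20 tested 7 fell and none rose, beside 0.603% and 1.93% of all genes, and 19 had a change below 0, with a median of -0.31 (-0.34 without both doubted libraries, where 3 passed). Hmgcs1 (chromosome 2, 53379457 to 53399807), at the entry of the pathway, ran from 290.2 through 337 to 363 CPM at P42 and from 185 through 209 to 257 CPM at P90. Every adult lay below every adolescent, with a log2 change of -0.59 ± 0.11 (edgeR adjusted p = 0.00558). Without the myelin-rich P90 replicates 4 and 6, its highest adults, the change was -0.72 (edgeR adjusted p = 0.0112). Dhcr7, which completes cholesterol, ran from 27.8 through 31.2 to 34.9 CPM at P42 and from 17.2 through 21.4 to 27.6 CPM at P90. Again the ages did not overlap (log2 change -0.47 ± 0.10, edgeR adjusted p = 0.0112). Sqle (-0.31), Lss (-0.33) and Cyp51 (-0.45), enzymes of the middle and late pathway outside the core, passed with all libraries and not without both doubted ones. Of 17 genes of sterol control and transport Nr1h2 (0.35), an oxysterol receptor, Srebf1 (0.47), a lipogenic factor, and Apoe (0.54), a lipid carrier, rose. None fell with edgeR, and DESeq2 called 2 lower, beside 359 of all 24065 genes. None of these 3 passed without both.

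The CCAAT box, bound by NF-Y, was searched as CCAAT, or ATTGG on the other strand, in the same windows. It was in 12 of the 15 sterol synthesis genes with a window and in 39.6% of all genes with one. The sterol regulatory element, bound by SREBP factors, was searched as TCACNCCAC, or GTGGNGTGA on the other strand, and was in none of the 15 and in 1.25% of all genes. No match says only that these letters are not in the window. Hmgcs1 and Lss are shown because both fell, on the gene's strand with CCAAT boxes in capitals. The Hmgcs1 stretch is chr2:53382104-53382303 (plus strand), from base -200 to base -1, and holds 2 boxes. The Lss stretch is chr20:12118281-12118330 (minus strand), from base -100 to base -51, and holds 1. Bases are counted from a transcript start. For Hmgcs1 that start, and the stretch, lie inside the span given above for the gene.
Hmgcs1: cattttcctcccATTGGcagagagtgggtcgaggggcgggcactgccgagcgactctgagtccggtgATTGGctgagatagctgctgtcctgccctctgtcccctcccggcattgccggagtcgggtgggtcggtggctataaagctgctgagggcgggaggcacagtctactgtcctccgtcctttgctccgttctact
Lss: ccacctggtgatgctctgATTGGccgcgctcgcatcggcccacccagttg

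Fatty acid genes fell in part. Of 18 tested 4 fell and none rose, beside 0.603% and 1.93% of all genes, with a list median of -0.05. Elovl6 (chromosome 2, 220738095 to 220845528), which lengthens palmitate, ran from 40.0 through 42.2 to 47.3 CPM at P42 and from 28.1 through 29.98 to 30.9 CPM at P90. The adults lay close together below all adolescents (log2 change -0.52 ± 0.08, edgeR adjusted p = 0.000795). Aacs, which feeds ketone bodies into lipid synthesis, ran from 41 through 48 to 53 CPM at P42 and from 27.6 through 32.8 to 36.2 CPM at P90. These groups did not overlap either (log2 change -0.53 ± 0.09, edgeR adjusted p = 0.0021). Acss2, which makes acetyl-CoA from acetate, changed by -0.39 ± 0.10 and passed in 9 of the 15 fits that left out 1 library. Fasn, the fatty acid synthase, changed by -0.27 and did not pass without both doubted libraries. Agps, an enzyme of ether lipid synthesis, changed by -0.30 ± 0.06 and Abca3, a lipid transporter, by -0.34 ± 0.06.

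Gpr17 (chromosome 18, 23850460 to 23857381), the receptor of oligodendrocytes about to myelinate, ran from 135 through 166 to 184 CPM at P42 and from 82.4 through 88.1 to 117 CPM at P90. All adults lay below all adolescents, and P90 replicate 4, the library richest in myelin genes, was the highest adult (log2 change -0.81 ± 0.14, edgeR adjusted p = 0.00231). Of 13 genes of newly forming oligodendrocytes Gpr17 alone passed with edgeR, and DESeq2 called 3 lower, beside 359 of all 24065 genes. Enpp6 (-0.69, edgeR adjusted p = 0.0711) and Rras2 (-0.52, 0.0764) did not pass with edgeR, nor did Bcas1 (0.75), which pointed the other way. Of 20 myelin genes 0 passed with edgeR and 1 with DESeq2, and 3 had an unadjusted p under 0.05. Over all 24065 genes 4245 did. Of 13 precursor genes 0 passed with edgeR and 1 with DESeq2, and 4 had an unadjusted p under 0.05. The smallest p among them were those of Hapln2 (0.75) and Ugt8 (-0.72) for myelin and Vcan (-0.34) and Matn4 (-0.55) for precursors.

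Cd93, Lamb1, L1cam, Nlgn3 and Adam19 encode proteins of the cell surface or matrix, and all 5 fell. Cd93 (chromosome 3, 156345019 to 156351537), a receptor of endothelial cells, ran from 7.16 through 9.57 to 14 CPM at P42 and from 2.78 through 4.75 to 6.02 CPM at P90. It had the largest fall of the core genes with a symbol, without overlap of the ages (log2 change -1.10 ± 0.22, edgeR adjusted p = 0.00657). Of 17 endothelial and pericyte genes 0 passed with edgeR and 0 with DESeq2, and the median was -0.28. An unadjusted p under 0.05 was found for 3, beside 4245 of all 24065 genes. Lamb1, a laminin chain, ran from 35.4 through 37.9 to 43.8 CPM at P42 and from 21.1 through 28.5 to 33.8 CPM at P90. The ages did not overlap (log2 change -0.45 ± 0.08, edgeR adjusted p = 0.00474). Of 23 basement membrane and collagen genes 5 fell and none rose, beside 0.603% and 1.93% of all genes, with a median of -0.34. Besides Lamb1 these were Lama4 (-0.53), Nid1 (-0.60), Agrn (-0.55) and Col4a1 (-0.65), which did not pass without both doubted libraries. L1cam, an adhesion molecule of axons, changed by -0.37 ± 0.07 and Nlgn3, a postsynaptic adhesion molecule, by -0.30 ± 0.05. Adam19, a membrane protease, ran from 18.1 through 20.7 to 23.4 CPM at P42 and from 8.07 through 12.5 to 14.7 CPM at P90. Again no adult reached the adolescent range (log2 change -0.73 ± 0.13, edgeR adjusted p = 0.00278).

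The remaining named genes that fell have unlike roles. Casr (chromosome 11, 77738398 to 77813639), the calcium-sensing receptor, ran from 12.2 through 13.8 to 17.9 CPM at P42 and from 6.2 through 7.9 to 10.3 CPM at P90. All adults lay below all adolescents (log2 change -0.86 ± 0.15, edgeR adjusted p = 0.00314). Rab7b, a small GTPase of endosome traffic, changed by -0.72 ± 0.11 and Tbc1d13, a regulator of Rab proteins, by -0.24 ± 0.04. Zfp57, which protects methylation at imprinted loci, ran from 31.4 through 32.8 to 36.5 CPM at P42 and from 22.4 through 24.6 to 31 CPM at P90. Its groups did not overlap (log2 change -0.38 ± 0.07, edgeR adjusted p = 0.00431). Of 20 imprinted genes 0 passed with edgeR and 1 with DESeq2. An unadjusted p under 0.05 was found for 3, beside 4245 of all 24065 genes. Fbxl18, an F-box protein, changed by -0.56 ± 0.10.

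Several lists had calls that were lost without both doubted libraries, where 0.313% of all genes passed. With all libraries 1.93% of all genes rose and 0.603% fell. Of 29 ribosomal protein genes 22 rose, among them Rpl5 (0.53 ± 0.12) and Rpl23 (0.57 ± 0.13), with a median of 0.52. Without both, 0 passed with edgeR while 28 had an unadjusted p under 0.05, and the median was 0.39. Of 15 astrocyte genes S100b (0.61), Aldoc (0.53) and Ndrg2 (0.57) rose, and of 20 complement genes C1qb (0.72), C3 (1.19), C1qc (0.74), C1qa (0.74) and C1r (0.83) did. The C1q genes are the 3 that rose among 17 microglia genes as well. Of 20 immediate early genes Dusp1 (0.74), Fosb (0.69) and Fos (1.001) rose. Without both, 0 genes of these 4 lists passed with edgeR, while 7 astrocyte, 10 complement, 8 microglia and 5 immediate early genes had an unadjusted p under 0.05. Over all genes 2657 of 24297 did without both. With all libraries the choroid plexus list had the highest median of the 43 lists, 0.96, with 0 genes past the threshold of edgeR, 1 of DESeq2 and 4 at an unadjusted p under 0.05. Without both its median was 0.37, and the ependyma list had the highest, 0.62, against 0.52 with all libraries.

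The neuronal lists held at most 2 genes each past the threshold of edgeR, where 0.603% of all genes were lower and 1.93% higher. Of 22 spiny neuron genes 0 passed with edgeR and 0 with DESeq2, and the median was -0.11, with 19 below 0. An unadjusted p under 0.05 was found for 1 of them, beside 4245 of all 24065 genes. Pdyn, the dynorphin precursor, stood at -0.28 and Adcy5, the striatal adenylyl cyclase, at -0.30. Without both doubted libraries 0 spiny neuron genes passed with edgeR, the median was -0.25 and all 22 were below 0. Drd1, the dopamine D1 receptor, lay between 239 and 427 CPM at P42 and between 216 and 359 CPM at P90, with overlap. Of 31 glutamate receptor and scaffold genes Grik2 (-0.35 ± 0.07) and Grin1 (-0.30 ± 0.07), a kainate and an NMDA receptor subunit, fell. Of the 31, 29 had a change below 0 (median -0.16), as did 29 of 33 axon guidance genes (median -0.21). Single genes fell among 12 interneuron (Nos1, -0.44), 21 GABA (Gabrg3, -0.46), 33 axon guidance (Robo1, -0.31) and 21 perineuronal net genes (Ncan, -0.48). Dpysl3 (-0.31) and Dpysl5 (-0.31) fell among 18 immature neuron genes. In the list of dopamine and opioid genes Maob (0.46), which breaks dopamine down, rose and none of the 18 fell with edgeR. None of these genes passed without both doubted libraries by edgeR.

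**Figure D4:**
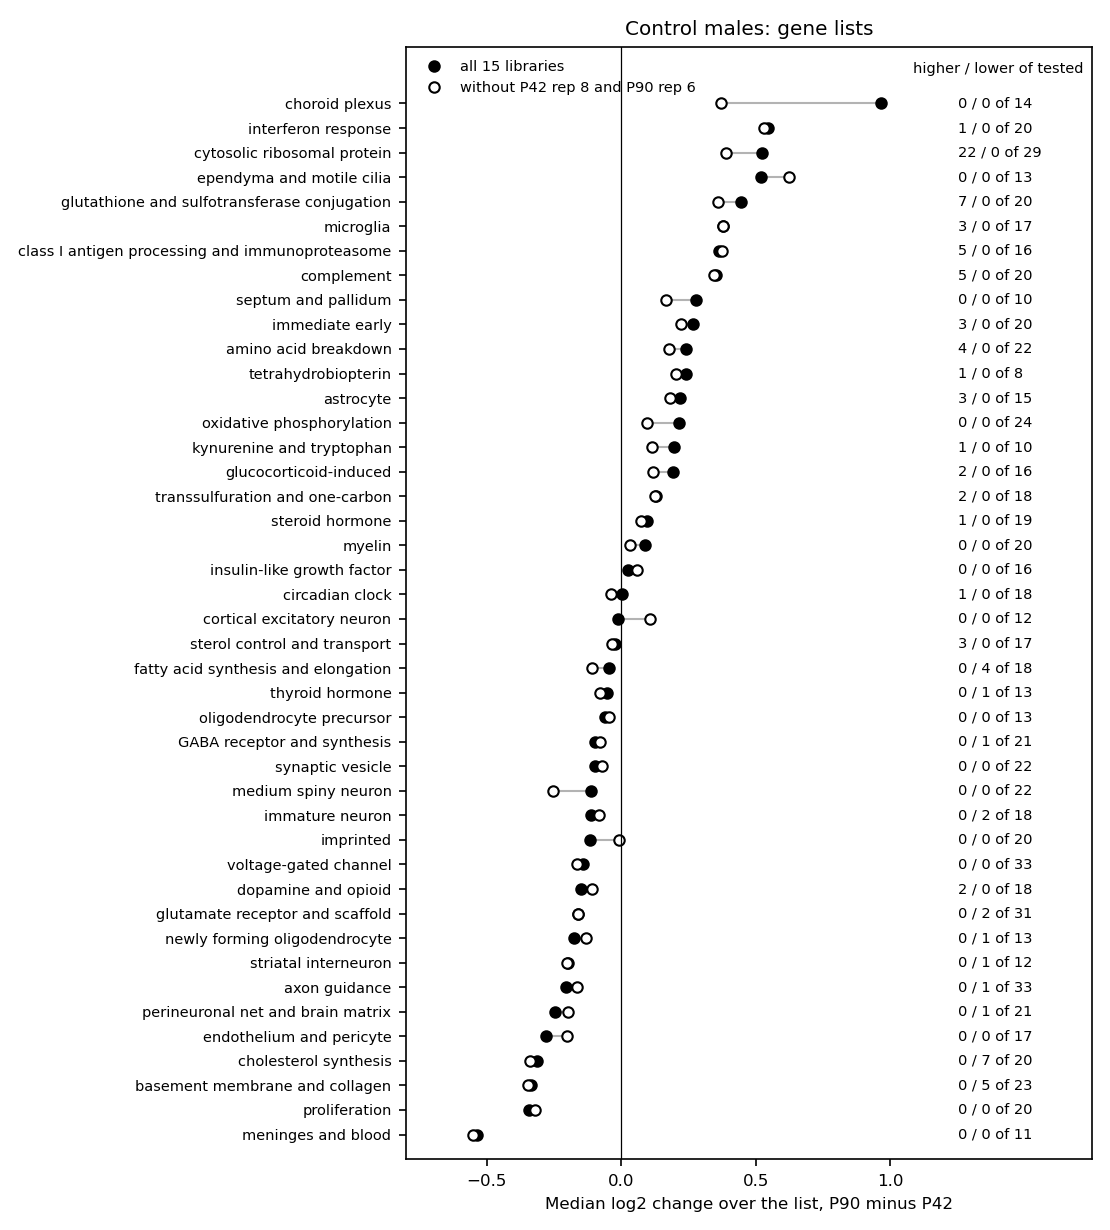
Median log2 change (x axis, P90 minus P42) over the tested members of each of 43 gene lists in control males, with all 15 libraries (filled) and without P42 replicate 8 and P90 replicate 6 (open). Numbers at the right count members past adjusted p 0.05, higher and lower, of those tested. The choroid plexus list has the highest filled point, 0.96 (0.37 open), and the ependyma list the highest open point, 0.62.

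Control females are separate libraries, and 54 genes rose (0.224%) and 47 fell (0.195%), or 0.42% in all, with age in them. Of the 48 core genes that rose in males 46 had a change above 0 in females and 12 passed, and of the 22 that fell 20 had a change below 0 and 10 passed. The medians in females were 0.41 and -0.40, of genes chosen for their change in males, and were not compared with those of males. Marker lists in females had median log2 changes with age of 0.84 for cortical neurons, -0.82 for ependyma, -0.57 for choroid plexus and -0.52 for myelin, and their part in these values was not tested. Genes that passed there included Qdpr (1.297), Aadat (1.02), Nat8f3 (1.68), Cbs (0.45), Casr (-1.002), Gpr17 (-0.81) and Elovl6 (-0.46). L1cam (0.01), Lamb1 (0.04), Rdm1 (-0.03) and Aif1l (-0.06) had the opposite sign to males and did not pass. The test of the difference between the sexes called 0 genes with edgeR and 0 with DESeq2, and 2045 genes had an unadjusted p under 0.05. Lamb1 had one of its smallest p, with a change higher in females by 0.49 ± 0.12 (edgeR adjusted p = 0.47), and Aif1l had a lower change in females (-0.75 ± 0.19, 0.47). A difference that misses the threshold does not show that the sexes changed alike. Female P42 replicate 5 held male markers, and its title carries the library number next to that of male P42 replicate 8. Whether these 2 were exchanged was not tested. Without the libraries whose markers go against their titles the count was also 0.

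In ethanol-exposed males 20 genes rose (0.0767%) and 60 fell (0.23%), or 0.307% in all, between PAE-VEH at P42 and PAE-AAE at P90, in libraries not used for the controls. Of the 22 core genes that fell in controls 20 had a change below 0 there and 10 passed, among them Hmgcs1 (-0.86), Dhcr7 (-0.61), Elovl6 (-0.49), Aacs (-0.52), Acss2 (-0.47), Gpr17 (-0.75), Casr (-0.67) and Rab7b (-0.76). Of the 20 sterol synthesis genes 9 fell in exposed males, with a median of -0.43, and of the 13 genes of newly forming oligodendrocytes 6 fell. The 20 myelin genes had a median of -0.45 in exposed males, with 17 below 0, against 0.09 in control males. The 13 precursor genes had a median of -0.14 in exposed males, all below 0. The part of oligodendrocyte content in these falls was not tested. Hmgcs1 ran from 270.2 through 308 to 542 CPM in exposed adolescents and from 153 through 178.9 to 231 CPM in exposed adults. Every exposed adult lay below every exposed adolescent, as in controls. PAE-VEH P42 replicate 5 held female markers against its male title. The 80 calls between the exposed groups became 58 without the libraries whose markers go against their titles. They became 54 without PAE-VEH P42 replicate 6.

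Of the 48 core genes that rose in controls 41 had a change above 0 in exposed males and 4 passed, which were Cbx7 (0.49), Nat8f3 (0.94), Qdpr (0.94) and the locus LOC120102423. Their median was 0.18 in exposed males. The genes were chosen for their change in control males, which raises the control median of 0.71, so the 2 medians were not compared. Aadat stood at 0.64 (edgeR adjusted p = 0.265), Cbs at 0.09 and Mgst1 at 0.13, and none of these passed. Mt3 ran from 153 through 174.9 to 231 CPM in exposed adolescents and from 116 through 135 to 214 CPM in exposed adults. Its median was lower in the exposed adults than in the exposed adolescents, with overlap. The test of the difference between exposed and control males called 37 genes (0.142%), 33 of them with a lower change in exposed males (0.127%) and 4 with a higher one (0.0153%). Among the core genes these were Mt3 (-0.88 ± 0.15, edgeR adjusted p = 0.0137), the carbonic anhydrase Car6 (-1.05 ± 0.20, 0.0394), Rnase4 (-0.67 ± 0.15, 0.045) and Psat1 (-0.59 ± 0.13, 0.045).

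These calls of a difference depended on single libraries. Without control P90 replicate 6 the count was 0 with edgeR, and without control P42 replicate 8 it was 10. Without both it was 0, with 2720 genes at an unadjusted p under 0.05 against 4310 with all libraries. Mt3 then stood at -0.79 and Car6 at -1.05 (edgeR adjusted p = 0.11 and 0.157). Without PAE-VEH P42 replicate 6 the count was 1, and without the 3 libraries of the series whose sex markers go against their titles it was 1. DESeq2 called 508. The median change of the 12 cortical neuron genes was -0.78 between the exposed groups and -0.01 between the control groups, and the part of cortical tissue in these differences was not tested.

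**Figure D5:**
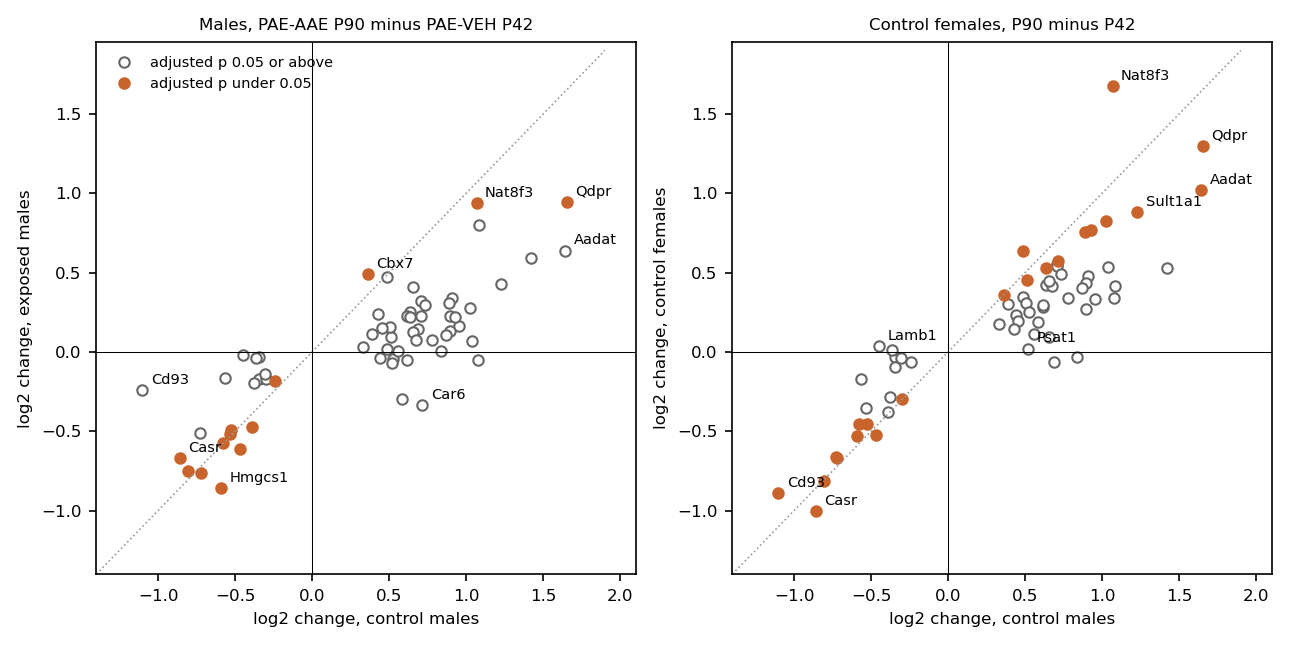
Log2 change, P90 minus P42, in control males (x axes) for the core genes with a gene symbol. The y axes give exposed males (left) and control females (right). The exposed groups differ in adolescent treatment as well as in age. Orange points passed adjusted p 0.05 in the group on the y axis, and the dotted line marks equal change. The genes were chosen on the x axis values, so their distance from the dotted line is not a test. Car6 lies at 0.72 on the x axis and -0.34 on the y axis at the left.

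LOC120102423, a long non-coding RNA (chromosome 4, 174249777 to 174263977), was named after its values were seen. Scaled over all 54 libraries it stood at 89.8 CPM in control P90 replicate 2 and at 99.4 and 91.8 CPM in replicates 1 and 5 of the exposed adult males, and at no more than 0.779 CPM in each of the other 51 libraries. Its log2 change of 5.97 ± 1.05 in controls (edgeR adjusted p = 0.00314) therefore rests on 1 of the 6 adult libraries.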

How the data were processed

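Raw read counts per gene were deposited by the authors in 1 table, with a column per library. FPKM values deposited by the authors in the same table were not used. Per the labels' protocols, libraries were made with random hexamers and are not strand-specific, so reads of overlapping antisense genes cannot be told apart. The submitters' processing notes name fastp and HISAT2 2.0.5, while the sources used here name no read counter, annotation release or genome build. Of 46505 rows, 720 named no gene and were left out, and 45780 of the other 45785 IDs matched RefSeq GRCr8 with the same start and end. The rows left out held between 0.297% and 0.365% of a male control library's counts.

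Counts of the 30 control libraries were fitted with edgeR 4.0.16 in R 4.3.3, with 4 group means, TMM factors, its default filter on low counts and two-sided quasi-likelihood tests. P-values were Benjamini-Hochberg adjusted over the 24065 genes tested, with a threshold of 0.05, and the biological coefficient of variation was 35.4%. Exposed males, and their difference from controls, came from the same fit on all 54 libraries (26079 genes). The code was tested on simulated data. Groups come from the titles, replicate numbers follow the order of deposition, and the labels give 1 batch for all libraries.

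Named genes were called genes with a symbol and a mean of at least 1 CPM, 12 per direction by adjusted p and 10 per direction by size of change within the core, then up to 6 called members per list or 2 by smallest p, and markers of tissue and sex. Some genes that the rule names are not reported here. The comparison, the 43 lists and the rule were chosen with earlier results of these data known, so counts over lists are descriptions. Alternatives were RLE factors, no filter, DESeq2 1.42.0, voom with quality weights in limma 3.58.1, males only, all 54 libraries, and leaving out libraries. Leaving out P90 replicates 4 and 6, the libraries with markers against their titles, PAE-VEH P42 replicate 6, or 1 doubted library in the test against exposed males was chosen after seeing the data.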

Additional observations from a re-analysis of the deposited data

Results flagged for a closer look

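Of 94 checks for a single library far from the others of its group, 5 stood out, where chance gives about 1 in 20. Gpr17 was highest among the adults in P90 replicate 4, at 116.7 CPM. The choroid plexus sum was 2542 CPM in P42 replicate 5. The ependyma sum was 1236 CPM in P90 replicate 3, and the septum and pallidum sum was 547 CPM in P90 replicate 2. The locus LOC120102423 was at 89.8 CPM in P90 replicate 2. It was named after its values were seen, so its flag cannot be set against the chance rate.

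The change with age differed between exposed and control males, by the test of the difference itself, for 4 core genes that rose in controls. The exposed minus control differences in log2 change were -0.88 for Mt3, -1.05 for Car6, -0.67 for Rnase4 and -0.59 for Psat1. None of the 4 passed by edgeR without P42 replicate 8 and P90 replicate 6 of the controls.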

How the results depend on the processing

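The 610 calls between control males at P90 and P42 became 938 with all 54 libraries in the fit, 360 without the filter on low counts, 314 with males only, 1166 with DESeq2 and 402 with voom quality weights. They became 394 without P42 replicate 8, 106 without P90 replicate 6, 76 without both, 32 without P90 replicates 4 and 6, and 322 without the libraries whose sex markers go against their titles. Leaving out each library in turn gave between 106 and 1207. With DESeq2 the exposed males had 159 calls in place of 80. The difference between exposed and control males had 508 calls with DESeq2 in place of 37, 0 without both doubted control libraries, 10 without P42 replicate 8, 0 without P90 replicate 6, 1 without the libraries with markers against their titles and 1 without PAE-VEH P42 replicate 6. The cause was not tested. Over 141 genes, 2719 comparisons of a gene's change under an alternative kept direction and call, 663 kept direction and lost the call, and none reversed, in fits that share most of their libraries and for genes chosen in part by their change. No paired analysis was possible because replicate numbers follow the order of deposition and the titles carry no number shared between groups.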
